A study of Homo sapiens with 22 samples.

Results

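SK-N-SH, IMR-32 and GI-LI-N are established human neuroblastoma cell lines, and their response to hypoxia was read from 6 arrays, 1 for each line in hypoxia and 1 in normoxia. They are 3 of the 11 lines and 6 of the 22 arrays of the series. These lines were put together from measured values: their arrays resembled each other more closely than they resembled those of any other line, and the oncogene MYCN had a high signal on all of them. The hypoxic cells had been kept at 1% O2 for 18 hours and the normoxic cells at 20% O2, in the same medium, and no other agent is named. Expression was read on the Affymetrix U133 Plus 2.0 platform, and the signals are those of the authors, on a linear scale with a common array average. The other 8 lines, kept at the same oxygen levels, were LAN-1, SK-N-BE2(C), SK-N-F1, ACN, GI-ME-N, SHEP-2 and SHEP21N with and without MYCN overexpression. Values of the 3 lines are given below in the order GI-LI-N, IMR-32, SK-N-SH.

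Cells answer low oxygen mainly through the hypoxia-inducible factors, HIF, whose alpha subunits are hydroxylated by oxygen-dependent prolyl hydroxylases, bound by the VHL protein and degraded while oxygen is plentiful. In hypoxia the alpha subunits persist, pair with ARNT and bind DNA at the core letters ACGTG or GCGTG near genes of glycolysis, angiogenesis, mitophagy and collagen modification. In neuroblastoma, a tumor of the sympathetic lineage, HIF is studied beside MYCN, whose amplification marks aggressive tumors.

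The resemblance of the lines and their labels were examined first, as a description, because the lines had been chosen by it. Between the 3 lines the 12 correlations of log2 signals across 12519 genes lay between 0.932 and 0.948, against 0.955, 0.958 and 0.968 for the hypoxic against the normoxic array of each line. With any of the other lines the highest value was 0.831 (SK-N-BE2(C) with IMR-32) and the lowest 0.534 (SHEP-2 with SK-N-SH). At its brightest probeset MYCN had signals of 44726, 44544 and 35223 in hypoxia and of 43593, 38791 and 33504 in normoxia. As background, SK-N-SH is known as a line without MYCN amplification, so these signals go against its label, and it is called here the line labelled SK-N-SH. Whether the arrays come from different lines or from repeated cultures of 1 line cannot be told apart from these values. The p-values and SEs rest on 3 such pairs, with 2 residual degrees of freedom per gene. The variance of each gene was drawn towards that of genes of like signal, with 11.4 prior degrees of freedom. They are thus mostly set by that shared variance and do not measure the spread of the 3 pairs alone.

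Of the 12 neuroblastic markers, 11 had a signal of at least 100 on all 6 arrays, among them PHOX2A, GATA3, ISL1, DBH and CHGA. The exception was TH, the enzyme that opens catecholamine synthesis, with signals between 2.75 and 144. GATA2 passed that limit at only 160 to 371, whereas other lines reached 15739. Of the 11 mesenchymal markers 6 passed that limit and 4 stayed below 100 on all 6 arrays. Among these 4, ANXA1 and CAV1 did not exceed 62.2 and 38.3, whereas other lines reached 38398 and 50919. By contrast VIM (14847 to 24866), ANXA2 (11759 to 24950) and S100A6 (2708.5 to 6006.6) were bright in the 3 lines. Other lines reached 113310, 70688 and 45382 for these. None of the 4 Schwann cell and none of the 6 leukocyte markers had a signal of at least 100 on all 6 arrays. Their summed signals were 44.3 to 140 in hypoxia and 117 to 251 in normoxia for the Schwann cell markers, and 105 to 309 in hypoxia and 289 to 419 in normoxia for the leukocyte markers. Of the fibroblast markers, 3 of 7 passed that limit, and their sums were 2526 to 3338 in hypoxia and 1811 to 3036 in normoxia. The 3'/5' ratio of the GAPDH control, a sign of RNA quality, was 1.02 to 1.06 in hypoxia and 1.04 to 1.15 in normoxia, and that of ACTB 1.23 to 1.68 in hypoxia and 1.40 to 1.80 in normoxia.

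Promoters of 4 of the genes that rose are shown because they span the range of HIF core letters in this set. The sequences run 5′ to 3′ on the strand of the gene, from 250 bases before to 50 bases after the RefSeq start (GRCh38.p14), and capitals mark ACGTG or GCGTG on either strand (CACGT and CACGC on the strand shown). A palindromic CACGTG counts once on each strand. BNIP3 (minus strand, chr10:131981874-131982173) had 6 matches, ALDOC (minus strand, chr17:28576846-28577145) had 5, FAM162A (plus strand, chr3:122383932-122384231) had 4, and PDK1 (plus strand, chr2:172555123-172555422) had 0 in this window.
BNIP3: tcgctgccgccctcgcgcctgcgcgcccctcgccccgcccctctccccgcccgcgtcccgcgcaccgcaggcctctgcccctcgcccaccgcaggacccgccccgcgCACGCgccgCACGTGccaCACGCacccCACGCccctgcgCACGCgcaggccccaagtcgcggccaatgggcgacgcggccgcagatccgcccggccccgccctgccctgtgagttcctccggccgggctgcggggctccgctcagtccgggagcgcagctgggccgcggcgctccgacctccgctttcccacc
ALDOC: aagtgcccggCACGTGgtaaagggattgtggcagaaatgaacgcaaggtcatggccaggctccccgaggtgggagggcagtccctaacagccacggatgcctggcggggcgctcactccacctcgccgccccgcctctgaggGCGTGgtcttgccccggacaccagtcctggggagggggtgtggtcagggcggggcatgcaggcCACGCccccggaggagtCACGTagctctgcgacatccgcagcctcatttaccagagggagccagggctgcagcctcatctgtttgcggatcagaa
FAM162A: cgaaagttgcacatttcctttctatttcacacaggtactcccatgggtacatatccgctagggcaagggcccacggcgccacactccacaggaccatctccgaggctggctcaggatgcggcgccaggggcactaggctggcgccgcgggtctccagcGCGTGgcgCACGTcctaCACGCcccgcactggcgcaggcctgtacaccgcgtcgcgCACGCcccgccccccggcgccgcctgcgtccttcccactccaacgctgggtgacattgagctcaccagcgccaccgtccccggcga
PDK1: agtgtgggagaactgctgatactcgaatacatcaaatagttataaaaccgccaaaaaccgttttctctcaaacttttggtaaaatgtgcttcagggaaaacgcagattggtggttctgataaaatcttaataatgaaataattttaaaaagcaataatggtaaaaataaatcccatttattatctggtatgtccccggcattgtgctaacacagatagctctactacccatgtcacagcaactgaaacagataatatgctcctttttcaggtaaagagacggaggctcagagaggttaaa
Of the 64 genes that passed the test as higher, 54 had an entry in the RefSeq table, and 40 of these (74.1%) held ACGTG or GCGTG on either strand. The share was 56.4% over the 15381 measured genes with an entry and 48.4% over all 27305 promoters. For ACGTG alone it was 40.7% (22 of 54), against 24.1% of the measured genes and 21.6% of all promoters. These shares were not matched for signal. The genes that rose all had a mean signal of at least 419, whereas the measured genes include dim ones, and the part of this in the shares was not tested. A match is a stretch of letters and not a measured binding site.

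Hypoxia against normoxia was compared gene by gene over the 3 pairs, to ask which transcripts move with oxygen in this MYCN-high background. Of 19775 genes, 64 were higher (0.324%) and 4 were lower (0.0202%) in hypoxia at an adjusted p under 0.05 (limma, cell line as a block, Benjamini-Hochberg). Among the genes that passed, the rises led in size as well: 39 rose at least 2-fold, and 0 fell by as much. All 64 were higher and all 4 lower in each of the 3 lines, and all 68 had a mean signal of at least 100, the lowest being 419. In 48 of the 64 every hypoxic array lay above every normoxic one, which held for 4.09% of all genes, and in 1 of the 4 every hypoxic array lay below, which held for 3.19%. Of the genes that rose, the median log2 change was 1.15 in GI-LI-N, 1.23 in IMR-32 and 1.00 in the line labelled SK-N-SH, and IMR-32 had the largest change in 39 of them. At an unadjusted p under 0.05 there were 900 genes higher and 733 lower. Each gene was read from its brightest probeset. Of the 64, 31 had several probesets with a mean signal of at least 100, and in 23 of these all of them were higher in each line. The 8 others were HK2, PFKP, P4HA2, KDM5B, KDM4B, APBA1, NAV1 and EPB41L4A-AS1.

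These calls rest on a variance estimate that follows the signal level: without that trend 0 genes passed (1217 at an unadjusted p under 0.05), and a form of the methods' test that was paired here by line and adjusted over all genes, with no prior 2-fold selection, passed 0 (1159 at an unadjusted p under 0.05). The count of falls also depended on single lines, with 93 genes lower without the line labelled SK-N-SH, 13 without GI-LI-N and 1 without IMR-32, whereas the higher side held 83, 87 and 54 genes.

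**Figure D1:**
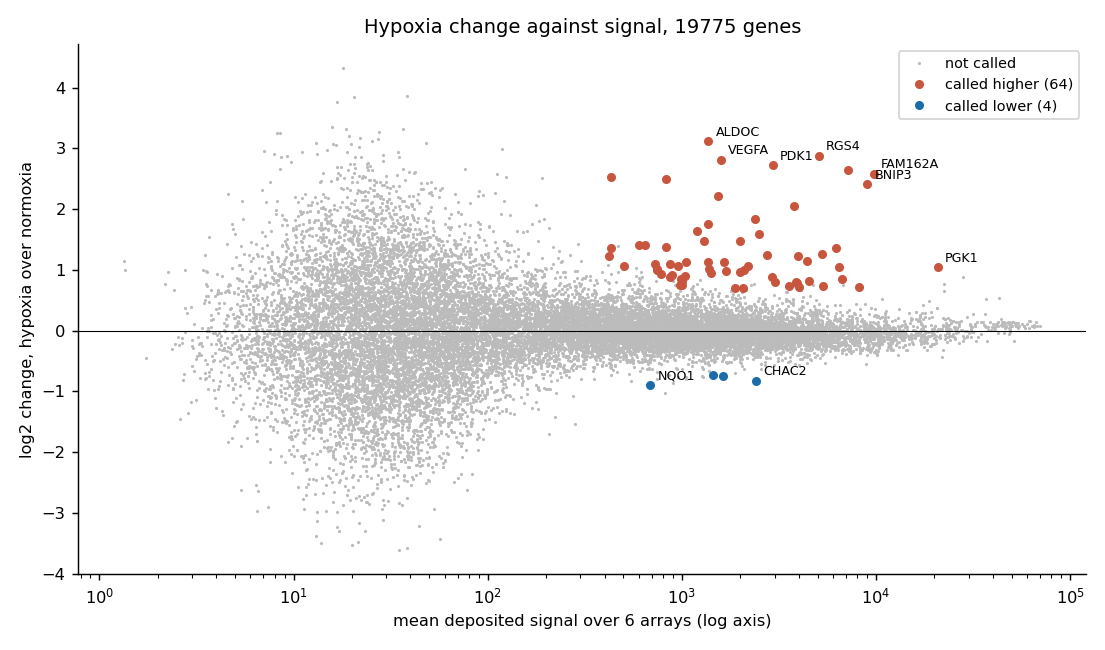
Log2 change, hypoxia over normoxia (vertical axis, mean of the 3 lines), against the mean deposited signal over 6 arrays (horizontal log axis), 1 point per gene of 19775. The 64 genes called higher, meaning an adjusted p under 0.05, and the 4 called lower all had mean signals of at least 419, and the scatter of the other genes was wide at low signals.

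PDK1, a kinase that switches off pyruvate dehydrogenase, had signals of 7209, 4945 and 3194 in hypoxia and of 1044, 618 and 614 in normoxia. Its groups did not overlap, and its log2 change of 2.72 (SE 0.13) had an adjusted p of 1.33e-07. BNIP3, a receptor for mitophagy in the outer mitochondrial membrane, had signals of 16153, 19718 and 9998 in hypoxia and of 2812, 2609 and 2926 in normoxia. The normoxic values lay close together and the hypoxic value labelled SK-N-SH was the lowest of the 3, with a log2 change of 2.41 (SE 0.16, adjusted p = 3.29e-06). VEGFA, the main angiogenic growth factor, had signals of 3367, 3329 and 1450 in hypoxia and of 903, 224 and 234 in normoxia. GI-LI-N had the highest normoxic VEGFA signal and the smallest log2 change (1.85, against 3.81 in IMR-32 and 2.78 in the line labelled SK-N-SH), with a mean of 2.81 (SE 0.26, adjusted p = 9.80e-05). Of the 17 measured secreted angiogenic factors only 6, VEGFA included, had a mean signal of at least 100. The lowest mean signal of any gene that passed was 419, so most of this list was too dim to judge. None of the other 16 factors passed the test. Among them ADM, the vasodilator adrenomedullin, was dim (289, 117 and 18.9 in hypoxia, 78.8, 27.9 and 11.96 in normoxia), and STC1 had a log2 change of 0.77 (SE 0.24, adjusted p = 0.391).

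Glycolysis was the broadest of the groups. Of 22 measured genes of glucose uptake and glycolysis, 8 rose and 0 fell, where 0.324% of all genes rose and 0.0202% fell. The median log2 change was 0.75 against -0.02 over all genes. Of the 21 with a mean signal of at least 100, 20 were higher in all 3 lines, as were 1994 of all 11324 such genes. The same shares over all genes stand beside every list below, and no list was matched for signal. ALDOC, the brain aldolase, had the largest rise of the genes that passed the test (log2 change 3.12, SE 0.17, adjusted p = 2.65e-07). Its signals were 3596, 2739 and 1076 in hypoxia and 331, 291 and 170 in normoxia. The bifunctional enzymes that set fructose 2,6-bisphosphate, the activator of phosphofructokinase, followed. PFKFB4 had signals of 1661, 2071 and 580 in hypoxia and of 191, 254 and 234 in normoxia, and its log2 change was 2.49 (SE 0.27, adjusted p = 3.99e-04). PFKFB3, with 2556, 5099 and 3559 in hypoxia against 944, 914 and 1186 in normoxia, changed by 1.84 (SE 0.17, adjusted p = 9.80e-05). The hexokinases, which trap glucose in the cell, rose by 1.36 (HK2, SE 0.13) and 0.80 (HK1, SE 0.12) on the log2 scale. For HK2 this is the value of its brightest probeset, at 10815, 9119 and 6818 in hypoxia and 4471, 2996 and 3000.5 in normoxia. Its 2 dimmer probesets were lower in hypoxia in all 3 lines (263, 270.1 and 250.3 against 575, 391 and 456, and 198, 267 and 268 against 359.8, 692 and 409).

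Further down the pathway PFKP, a phosphofructokinase (1.05, SE 0.13), PGK1, the phosphoglycerate kinase (1.05, SE 0.15), and GPI, the isomerase behind the hexokinases (0.72, SE 0.13), passed the test. PGK1 was the brightest gene to do so, with signals of 30482, 32048 and 21589 in hypoxia and of 14273, 14198 and 11828 in normoxia. ENO1 missed the limit with an adjusted p of 0.0547, at 30353, 29695 and 24879 in hypoxia and 17341, 16467 and 16119 in normoxia, so its groups did not overlap either. LDHA, which turns pyruvate into lactate and is a textbook HIF target, had a log2 change of 0.54 (SE 0.18, adjusted p = 0.445) at signals of 53519, 57935 and 41199 in hypoxia and of 37736, 33580.0 and 33099 in normoxia. The glucose transporters SLC2A3 (1.38, SE 0.31, adjusted p = 0.118) and SLC2A1 (0.52, SE 0.22, adjusted p = 0.564) did not pass, and SLC2A1 was higher in 2 of the 3 lines.

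Glycogen genes showed 2 rises among 11 measured, where 0.324% of all genes rose. GBE1, the branching enzyme of glycogen, had signals of 2432, 1726 and 1281 in hypoxia and of 811, 367 and 591 in normoxia (log2 change 1.65, SE 0.17, adjusted p = 3.50e-04). PGM1, which links glucose 1-phosphate and glucose 6-phosphate, rose by 0.79 (SE 0.13, adjusted p = 0.0125). PPP1R3C, a scaffold that directs a phosphatase to glycogen, did not overlap between groups but had an adjusted p of 0.131 (log2 change 1.15, SE 0.26). The median of the list was 0.32.

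In the mitochondrion the response was narrow. Of 10 measured genes of pyruvate dehydrogenase control only PDK1 passed the test, and PDK3 changed by 0.30 (SE 0.14, adjusted p = 0.6095). Of 13 measured genes of mitophagy and mitochondrial division 3 rose, where 0.324% of all genes rose, and the median was 0.06. Beside BNIP3 these were FAM162A, a mitochondrial protein linked to hypoxic cell death, with signals of 17125, 21607 and 11522 in hypoxia and of 2805, 2999 and 2362 in normoxia (log2 change 2.58, SE 0.13, adjusted p = 1.33e-07), and BNIP3L, a close relative of BNIP3. BNIP3L had 5574, 8804 and 7934 in hypoxia and 2416, 3125 and 3810 in normoxia (1.26, SE 0.12, adjusted p = 1.69e-04). Of 35 measured subunits of oxidative phosphorylation 0 rose and 0 fell, with a median of -0.05, and SDHD had the smallest adjusted p among them (-0.39, SE 0.14, adjusted p = 0.458). COX4I2, the alternative subunit 4 of cytochrome c oxidase that is known to replace COX4I1 in low oxygen, was outside that list and rose, with signals of 696, 480 and 691 in hypoxia and of 317, 234 and 185 in normoxia (1.36, SE 0.25, adjusted p = 0.0315). AK4, an adenylate kinase of the mitochondrial matrix, rose by 2.05 (SE 0.15), and all 4 of its bright probesets were higher in each line.

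**Figure D2:**
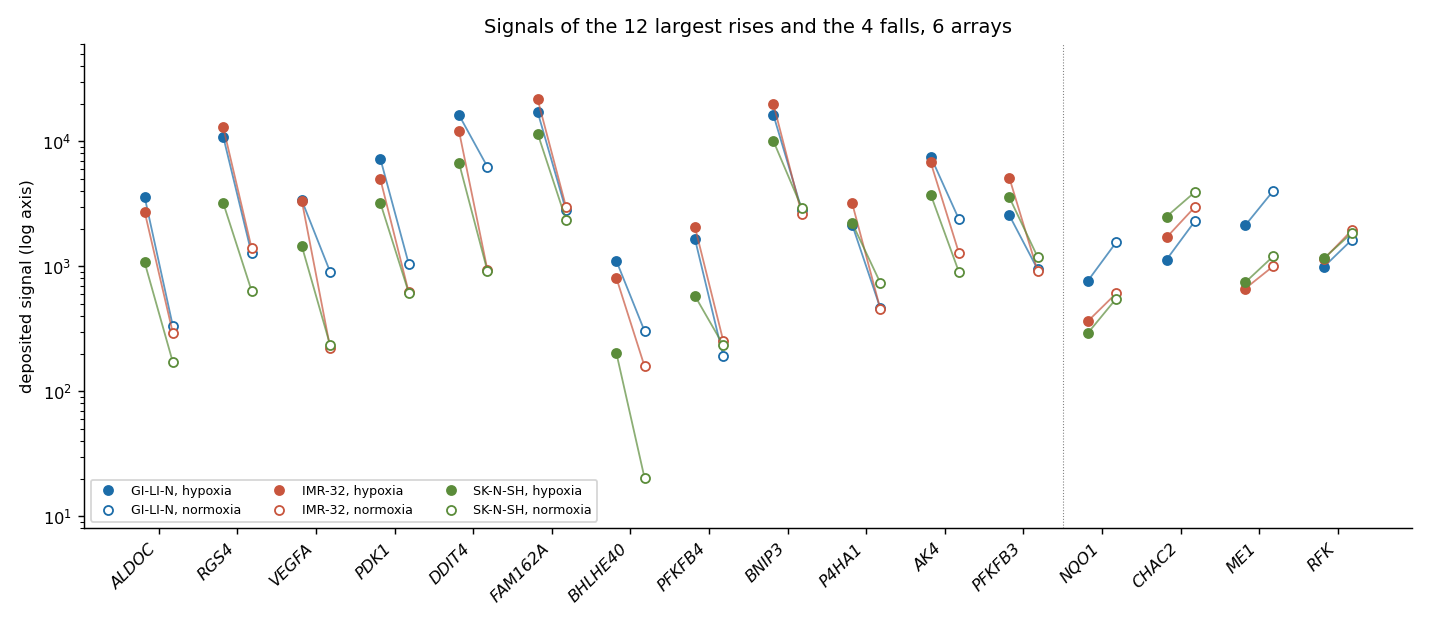
Deposited signals (vertical log axis) of the 12 largest rises and the 4 falls among the genes that passed the test. The hypoxic array (filled) is left of the normoxic array (open) of each line, joined by a line. ALDOC stands at 1076 to 3596 in hypoxia and at 170 to 331 in normoxia, and DDIT4 shows the high normoxic value of GI-LI-N (6259).

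Oxygen sensing genes contain the brake on HIF itself. EGLN1, the main prolyl hydroxylase of HIF alpha, had signals of 2843, 2506 and 2954 in hypoxia and of 1525, 1005 and 1756 in normoxia, and its log2 change was 0.99 (SE 0.13, adjusted p = 2.83e-03). It alone of 12 measured members passed the test, where 0.324% of all genes rose. EGLN3, another prolyl hydroxylase, had 251, 431 and 182 in hypoxia against 99.8, 55.3 and 48.4 in normoxia, a log2 change of 2.07 with an SE of 0.42 and an adjusted p of 0.0661. HIF1A itself, bright on all arrays (12166, 8908 and 13332 in hypoxia, 13600.0, 10782 and 14228 in normoxia), changed by -0.17 (SE 0.14, adjusted p = 0.805). EPAS1, which encodes HIF-2 alpha, was dim (91.2, 11.6 and 37.3 in hypoxia, 8.75, 33.5 and 87.8 in normoxia) and overlapped. MYCN changed by 0.11 (SE 0.18, adjusted p = 0.929). In bulk RNA of a culture fewer cells with a transcript and less transcript per cell cannot be told apart.

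Enzymes that use oxygen as a substrate formed another set. Of 12 measured genes of collagen hydroxylation and crosslinking 3 rose and 0 fell (median 0.49), where 0.324% of all genes rose. P4HA1, the catalytic subunit of collagen prolyl hydroxylase, had signals of 2156, 3206 and 2217 in hypoxia and of 459.7, 452 and 734 in normoxia (log2 change 2.22, SE 0.18, adjusted p = 2.13e-05). PLOD2, a lysyl hydroxylase of collagen telopeptides, rose by 1.47 (SE 0.20) and P4HA2 by 1.07 (SE 0.19), whereas LOX, the lysyl oxidase, had an adjusted p of 0.3503 (0.62, SE 0.19). Of 18 measured jumonji histone demethylases 3 rose and 0 fell, where 0.324% of all genes rose, with a median of 0.10. KDM3A, which removes methyl groups from histone H3 lysine 9, had 3170, 4401 and 3717 in hypoxia and 1349, 1062 and 1321 in normoxia (1.59, SE 0.15, adjusted p = 1.09e-04). KDM5B, an H3 lysine 4 demethylase (0.96, SE 0.13), and KDM4B (0.70, SE 0.13) also rose, and KDM7A had 1082, 711 and 619 in hypoxia against 657, 368 and 310 in normoxia with an adjusted p of 0.0621. PAM, a copper enzyme that needs oxygen to amidate neuropeptides, rose as well, with 4286, 3758 and 3451 in hypoxia and 1711, 1210 and 2046 in normoxia (1.24, SE 0.14, adjusted p = 6.02e-04).

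Growth brakes and transcriptional repressors had 6 rises and 0 falls among 20 measured genes (median 0.49), where 0.324% of all genes rose. DDIT4, an inhibitor of mTORC1, had signals of 16186, 12012 and 6681 in hypoxia and of 6259, 941 and 921 in normoxia. GI-LI-N again had the high normoxic value, and its log2 change of 1.32 stood beside 3.59 in IMR-32 and 3.005 in the line labelled SK-N-SH (mean 2.64, SE 0.29, adjusted p = 4.80e-04). BHLHE40, a repressor of the clock and of differentiation genes, had 1109, 811 and 204 in hypoxia and 303, 158 and 20.2 in normoxia, so the groups overlapped although each line rose (2.53, SE 0.33, adjusted p = 2.83e-03). TXNIP, an inhibitor of glucose uptake and of thioredoxin (1.23, SE 0.14), and its arrestin relative ARRDC4 (0.89, SE 0.16) both rose. MXI1, a MAX partner that opposes MYC proteins, had 6448, 7011 and 3861 in hypoxia and 4129, 2872 and 2699 in normoxia (0.82, SE 0.14, adjusted p = 0.0220). NDRG1, named for its repression by MYCN, had 2334, 477 and 187 in hypoxia and 597, 196 and 95.4 in normoxia (1.41, SE 0.23, adjusted p = 0.0182). CDKN1C, an inhibitor of cyclin-dependent kinases, had an adjusted p of 0.0842 (0.72, SE 0.15).

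The cell cycle lists did not pass in any member. Of 25 measured DNA replication genes 0 rose and 0 fell, although their median was -0.22 and 10 were lower in all 3 lines, as were 1507 of the 11324 genes with a mean signal of at least 100. RRM2, the small subunit of ribonucleotide reductase, had the smallest adjusted p (0.224), with 4952, 7507 and 9304 in hypoxia and 7992, 11376 and 11844 in normoxia (-0.54, SE 0.14). By line, the median of this list was -0.48 in GI-LI-N, -0.27 in IMR-32 and 0.04 in the line labelled SK-N-SH, and over all genes it was -0.07, -0.08 and 0.12. Of 14 measured DNA repair genes 0 rose and 0 fell (median -0.16), and of 23 mitosis genes 0 rose and 0 fell (median 0.03). Cholesterol synthesis genes were on the other side, with a median of 0.29 and 8 of 11 higher in all 3 lines (1994 of 11324 overall), and none passed. DHCR7, the last reductase of that pathway, had 3177, 3062 and 2930 in hypoxia and 2039, 2329 and 2194 in normoxia (0.49, SE 0.12, adjusted p = 0.208).

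**Figure D3:**
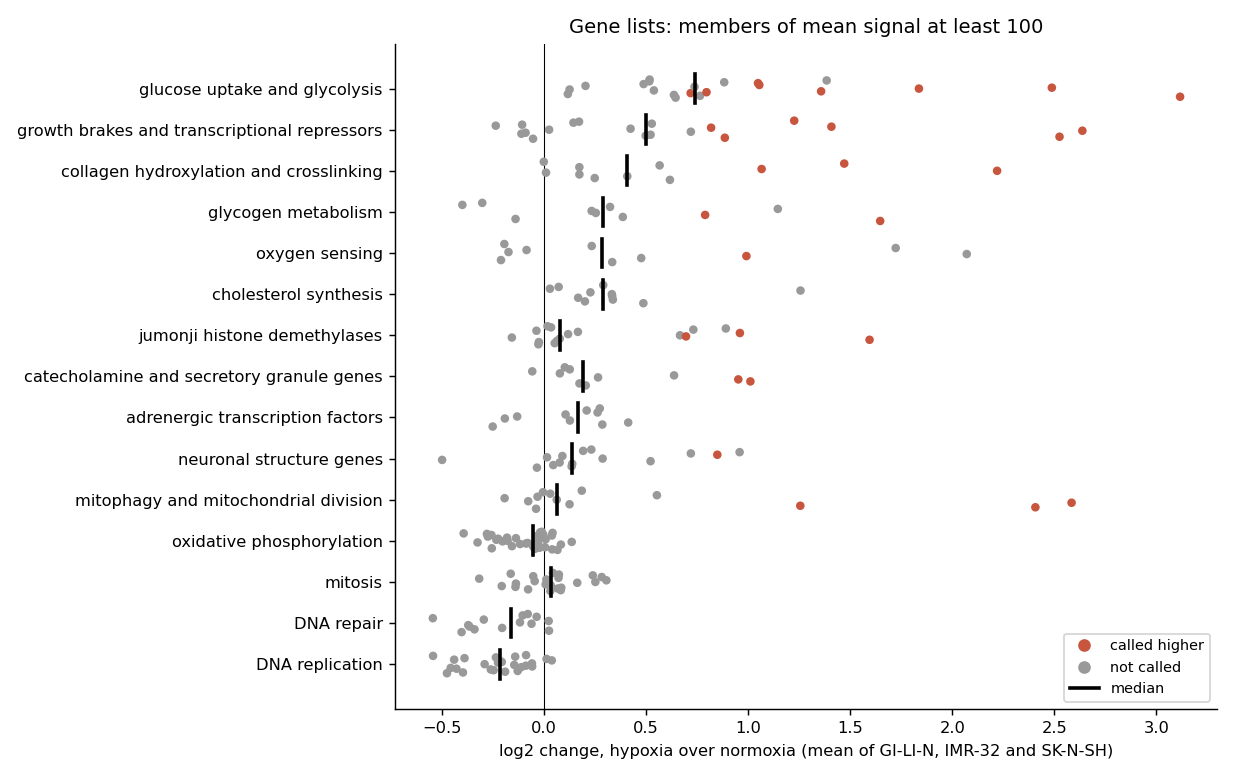
Log2 change, hypoxia over normoxia (horizontal axis, mean of the 3 lines), of the members of 15 gene lists with a mean signal of at least 100, 1 point per gene (red, called higher; grey, not called) with the median as a bar. In the list of mitophagy and mitochondrial division the 3 genes called higher lie at 1.26 to 2.58, apart from a median of 0.06. The median of the glycolysis list lies at 0.74.

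Among the genes that passed, the largest rise outside the lists was that of RGS4, which shortens signalling of G proteins and is known as a neuronal gene. It had signals of 10893, 12957 and 3206 in hypoxia and of 1269, 1406 and 639 in normoxia, a 7.36-fold change (log2 2.88, SE 0.14, adjusted p = 1.33e-07), and all 3 of its bright probesets were higher in each line. Enzymes of catecholamine synthesis moved too. Of 12 measured catecholamine and secretory granule genes 2 rose and 0 fell (median 0.19), where 0.324% of all genes rose. DDC, which makes dopamine from L-DOPA, had 2179, 1329 and 2044 in hypoxia and 1203, 579.6 and 1179 in normoxia (0.95, SE 0.14, adjusted p = 4.82e-03). DBH, a copper enzyme that uses oxygen to make noradrenaline from dopamine, had 2054, 1215 and 2146 in hypoxia and 1473, 550.0 and 812 in normoxia (1.01, SE 0.18, adjusted p = 0.0315). TH, the first enzyme and a gene known to respond to hypoxia in the carotid body, was too dim to judge at 144, 87.6 and 22.03 in hypoxia and 68.3, 77.2 and 2.75 in normoxia.

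Of 15 measured neuronal structure genes 1 rose and 0 fell (median 0.14), where 0.324% of all genes rose. This was STMN2, a microtubule regulator of growth cones, with 5169.5, 11908 and 8876 in hypoxia and 3367, 6414 and 4353 in normoxia (0.85, SE 0.14, adjusted p = 0.0170). PRPH, the peripheral neuron filament, was not in the list and rose by 0.72 (SE 0.13, adjusted p = 0.0316) at very different levels (8116, 839 and 6006 in hypoxia, 5169.8, 533 and 3311 in normoxia). Of the 11 measured adrenergic transcription factors 0 rose and 0 fell. APBA1, an adaptor of the amyloid precursor protein (1.13, SE 0.15), ATL1, an atlastin that shapes the endoplasmic reticulum of axons (1.14, SE 0.16), NAV1, a neuron navigator (1.07, SE 0.17), and UNC5A, a netrin receptor (0.75, SE 0.14), passed the test as single genes named after their values were seen. With the mean of all its probesets UNC5A changed by -0.10.

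Among secreted and surface proteins outside the lists, the WNT antagonist DKK1 had 568, 1627 and 1719 in hypoxia and 272, 687 and 1323 in normoxia (0.90, SE 0.16, adjusted p = 0.0344). Its level was lowest in GI-LI-N in both conditions, and the groups overlapped. CXCR4, the receptor for the chemokine CXCL12, had 2663, 3751 and 1400.2 in hypoxia and 1707, 1895 and 1012 in normoxia (0.70, SE 0.13, adjusted p = 0.0357). DLK1, a NOTCH-related surface protein of immature neuroendocrine cells, had 512, 815 and 1992 in hypoxia and 265, 331 and 1429 in normoxia (0.91, SE 0.17, adjusted p = 0.0408), but changed by -0.36 with the mean of all its probesets (adjusted p = 0.879). MEG3, a non-coding RNA of the same imprinted locus as DLK1, had 1279, 1216 and 529 in hypoxia and 506, 522 and 316 in normoxia (1.10, SE 0.17, adjusted p = 9.09e-03), and all 7 of its bright probesets were higher in each line.

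Several of the 20 largest rises among the genes that passed were outside the functional lists. TNIP1, which restrains NF-kappaB signalling, had 2161, 2411 and 1765 in hypoxia and 578, 584 and 718 in normoxia (1.75, SE 0.15, adjusted p = 4.43e-05). PNRC1, a coregulator of nuclear receptors, had 4139, 3407 and 1396 in hypoxia and 1345, 869.7 and 796 in normoxia (1.47, SE 0.16, adjusted p = 5.42e-04). ANKRD37, an ankyrin repeat protein known as a HIF target, had 1129, 1315 and 1118 in hypoxia and 595, 462 and 345 in normoxia (1.38, SE 0.19, adjusted p = 3.53e-03). CFAP95 overlapped between groups, with the line labelled SK-N-SH dimmest in both (1336, 1137 and 179 in hypoxia, 542, 342 and 78.8 in normoxia), while it rose in each line (1.41, SE 0.21, adjusted p = 6.63e-03). Single genes that also passed, named after their values were seen and forming no tested group, were CIART, a repressor of the circadian clock (1.13, SE 0.15), ZNF395 (1.13, SE 0.15), ZNF292 (0.73, SE 0.13) and SNAPC1, a subunit of the complex that transcribes small nuclear RNA genes (0.73, SE 0.12). So were the sialyltransferase ST3GAL6 (1.10, SE 0.15), the fucosyltransferase POFUT4 (0.99, SE 0.18) and the non-coding transcripts SNHG24 (1.02, SE 0.17) and EPB41L4A-AS1 (0.88, SE 0.13).

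The 4 genes that fell include 2 that NRF2, the regulator of the antioxidant response, is known to drive. NQO1, a quinone reductase, had 766, 364 and 292 in hypoxia and 1556, 607 and 551 in normoxia (-0.89, SE 0.17, adjusted p = 0.0490). ME1, the cytosolic malic enzyme that makes NADPH, had 2120.2, 662 and 742 in hypoxia and 4028, 1004 and 1206 in normoxia (-0.74, SE 0.14, adjusted p = 0.0414). CHAC2, which degrades glutathione, had 1130.0, 1699.6 and 2495 in hypoxia and 2291, 2977 and 3919 in normoxia (-0.82, SE 0.14, adjusted p = 0.0182). RFK, the riboflavin kinase that supplies FMN to flavoproteins, was the fall without overlap, with 987, 1139 and 1155 in hypoxia and 1636, 1948 and 1852 in normoxia (-0.73, SE 0.13, adjusted p = 0.0369).

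An NRF2 target list was added after these falls had been seen, so its count has no independent weight. Of 13 measured members 0 rose and 2 fell, where 0.0202% of all genes fell, with a median of -0.23. GCLM, a subunit of glutamate-cysteine ligase, had 2229, 985 and 1589 in hypoxia and 4258, 1587 and 1945 in normoxia with an adjusted p of 0.183. The amino acid stress list, with 0 rises and 0 falls among 16 genes, and the endoplasmic reticulum stress list, with 0 and 0 among 17, had medians of -0.08 and -0.01. The chaperone, nucleolar and pH control lists also had 0 rises and 0 falls, as had the mesenchymal, fibroblast, Schwann cell and leukocyte markers.

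The 32 signature genes that the study derived from all 11 lines, these 3 included, are no independent evidence of a direction. All 32 were measured, and 22 rose and 0 fell (median 1.25), where 0.324% of all genes rose. Of the 30 with a mean signal of at least 100, all 30 were higher in each of the 3 lines, as were 1994 of all 11324 such genes. IGFBP3 and ANGPTL4 were below that signal, with means in hypoxia of 29.8 and 55.4. Conversely 42 of the 64 genes that rose are not in the signature, among them RGS4, P4HA1, PFKFB3, GBE1, HK2 and PAM, and 28 are in none of the lists used here. The signature kept only probesets chosen by both selection methods of the study, with a 2-fold limit, whereas the calls here had no fold limit. Absence from it therefore does not mean that the study found no change.

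The hypoxia response of the 3 lines was then set against that of the other 8 lines, as a difference of the 2 log2 changes in 1 fit of all 22 arrays. 0 genes passed (0% of 19775), with 699 at an unadjusted p under 0.05 and a smallest adjusted p of 0.893. LAN-1, SK-N-BE2(C) and SK-N-F1 also had a clear MYCN signal at the brightest probeset (5788 to 67626). Against these 3 lines 0 genes passed as well (0%), with 1296 at an unadjusted p under 0.05 and a smallest adjusted p of 0.486. These tests had 3 lines on one side, and a miss does not show that the responses were alike. Of the 64 genes that rose, 60 had a mean change above 0 in the other 8 lines, 30 were higher in each of those 8, and 54 were higher in each of LAN-1, SK-N-BE2(C) and SK-N-F1. The median log2 change of the 64 genes was 1.08 in the 3 lines, where they had been selected, 0.79 in the other 8 lines and 1.06 in LAN-1, SK-N-BE2(C) and SK-N-F1.

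Single genes differed in how far the other lines followed, as a description. RGS4 changed by 2.88 in the 3 lines and by 0.60 ± 1.42 in the others (SD, n = 8 lines), where 3 of 8 were higher, all of them among LAN-1 (2.44), SK-N-BE2(C) (1.14) and SK-N-F1 (3.01). FAM162A, by contrast, was higher in 8 of 8 other lines (1.80 ± 0.89, SD, n = 8 lines), and so were BNIP3 (1.68 ± 0.82) and ALDOC (2.00 ± 0.77). NDRG1 was the clearest gene with a smaller rise in the 3 lines (1.41, against 2.63 ± 0.99 in the other 8 lines, all higher), and the difference of -1.23 (SE 0.49) had an adjusted p of 0.9997. DKK1 had adjusted p-values of 0.893 and 0.486 in the 2 difference tests: it rose by 0.90 in the 3 lines and changed by -0.38 ± 0.44 in the others (SD, n = 8 lines), with -1.26 in LAN-1, -0.22 in SK-N-BE2(C) and -0.57 in SK-N-F1. DBH was higher in all of LAN-1, SK-N-BE2(C) and SK-N-F1 (1.29 on average) and had a mean of -0.19 ± 1.45 over the other 8 lines. Of the falls, NQO1 was lower in 8 of 8 other lines (-0.54 ± 0.36) and CHAC2 in 7 of 8 (-0.69 ± 0.46). ME1 (-0.08 ± 0.75, highest 1.65) and RFK (-0.19 ± 0.66, highest 1.10) were each higher in 2 of the 8. The 2 states of SHEP21N were counted as 2 of these 8 lines, although they are 1 line in the labels. The state with MYCN overexpression enters every mean, SD and count over the 8 lines. Its normoxic array had 3'/5' ratios of 67.3 for GAPDH and 94.0 for ACTB.

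**Figure D4:**
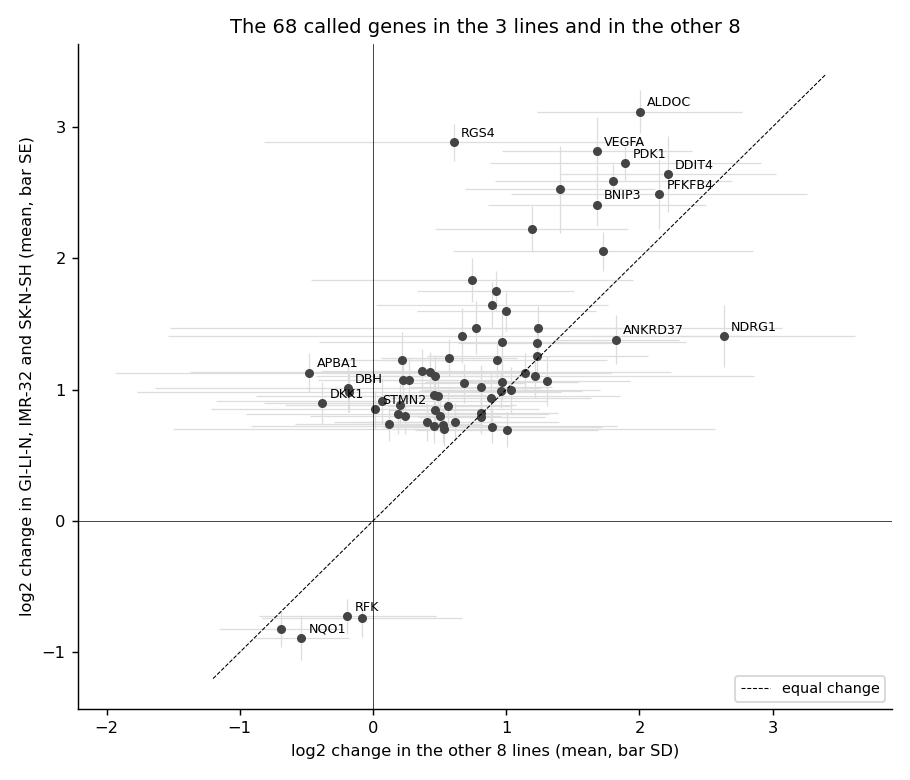
Log2 change, hypoxia over normoxia, of the 68 genes called in the 3 lines (vertical axis, mean with SE) against the mean of the other 8 lines (horizontal axis, with SD), with a dashed line of equal change. RGS4 lies far above the dashed line (2.88 against 0.60), NDRG1 below it (1.41 against 2.63), and DKK1, DBH and APBA1 at means below 0 in the other lines.

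Across the 3 lines the changes of genes with a mean signal of at least 100 correlated at 0.287 (GI-LI-N and IMR-32), 0.208 (IMR-32 and the line labelled SK-N-SH) and 0.128 (GI-LI-N and the line labelled SK-N-SH), as a description over 11324 genes that share 1 array per condition. Each of the 3 lines correlated in its changes best with LAN-1 among the other lines, at 0.201, 0.226 and 0.118. The array medians were 98.1, 97.7 and 71.9 in hypoxia and 94.5, 92.1 and 79.6 in normoxia. Division by them shifted the median change of genes with a mean signal of at least 100 to -0.06, -0.10 and 0.14, against -0.01, -0.01 and -0.01 in the deposited values, so a change of the line labelled SK-N-SH is best read relative to 0.14.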

How the data were processed

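RNA of 11 neuroblastoma lines, in hypoxia and in normoxia, was measured on 22 arrays, 1 per line and condition, and 6 of these were the main material. The deposited intensity values (signals) were made by the authors with MAS5, version not given, on a linear scale with 500 as the array average. The log2 of the ratio of a signal to the median of its array was analysed. Of 54675 probesets 41091 name 1 gene and 41037 of these matched a RefSeq gene. Each of 19775 genes was read from its brightest probeset. limma 3.58.1 (R 4.3.3) was fitted over the whole table, with a mean-variance trend and a block for the line, two-sided, Benjamini-Hochberg adjusted. With 3 pairs an exact permutation test could not go below p = 0.25. Scripts were tested on simulated data. Genes named were the 20 largest rises and every fall among genes that passed, BNIP3, PDK1, VEGFA, MYCN, HIF1A, EPAS1 and, per list, the 4 members of lowest adjusted p. Other genes were named after their values were seen. The lines, lists and tests were chosen with earlier results of these data known. Hypoxic and normoxic arrays of 1 line were paired by the line in the labels. FUT11 was read as POFUT4. The number of arrays limits the precision. Alternatives were the deposited scale, quantile normalization, a floor of 50, a mean signal of at least 100, other probeset rules, no trend, no block, all 22 arrays, the methods' test (paired here by line, over all genes, without their 2-fold selection) and each line left out.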

Additional observations from a re-analysis of the deposited data

Results flagged for a closer look

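Among 18 genes whose values in the other 8 lines were examined, 3 had a line that stood apart from the other 7. ME1 changed by 1.65 in ACN, the highest value of the 8. SH3BGRL3 changed by 1.91 and MEG3 by 4.89 in SHEP21N with MYCN, whose normoxic array had the high 3'/5' ratios (67.3 for GAPDH and 94.0 for ACTB). The part of these ratios in the 2 values was not tested. Chance marks about 1 group in 20 in this way. None of these values enters the test over the 6 arrays of the 3 lines.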

How the results depend on the processing

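Of the genes higher and lower in hypoxia, 64 and 4 in the analysis reported, there were 79 and 13 with the values as deposited, 65 and 9 with quantile normalization, 181 and 62 with signals below 50 set to 50, and 135 and 19 among genes with a mean signal of at least 100. There were 104 and 3 probesets with every probeset by itself, 14 and 0 with the mean of all probesets, and 9 and 1 with all 22 arrays in 1 fit. Without the mean-variance trend and with a form of the methods' test paired here by line there were 0 and 0 (smallest adjusted p 0.700 and 0.207). With no replicate block, that is without the pairing of arrays by cell line, 4 and 0 passed. At an adjusted p under 0.01 there were 36 and 0, and at least 2-fold 39 and 0. Leaving out 1 line gave 54 to 87 higher and 1 to 93 lower, and 0 to 2 genes different from the other 8 lines: without GI-LI-N, SH3BGRL (difference -2.57) and IFITM2 (3.01) passed. No other alternative moved the 0 of either difference test. Called under the 4 scaling and signal alternatives and without each line were 35 of the 68 genes, all of them higher.

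The log2 changes of PDK1 (2.72), BNIP3 (2.41) and VEGFA (2.81) stood at an adjusted p of 0.700 without the trend, and VEGFA (2.81) at 0.247 with no replicate block. Without 1 line they ranged from 2.63 to 2.82, 2.19 to 2.65 and 2.31 to 3.30. With the mean of all probesets HK2 (-0.14), DLK1 (-0.36), UNC5A (-0.10), PYGB (-0.15) and EPAS1 (-0.62) changed sign, as did EPAS1 without 1 line (-1.35 to 1.12, lowest without GI-LI-N) and MYCN with quantile normalization (-0.0024). For HK2 dimmer probesets of the opposite direction enter the mean, and the other causes were not tested. Signals near background limit what can be seen: the lowest mean signal of a gene that passed was 419.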
